A study of Mus musculus with 9 samples.

Results

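The IL-6 family genes described here are 10 genes of signaling through the shared receptor chain gp130, chosen by gene symbol, and all 10 had an entry among the 24453 genes of the expression table. They comprise the ligands Il6, Il11, Lif and Osm, the receptor chains Il6ra, Il11ra1, Osmr and Lifr, the shared chain Il6st, which encodes gp130, and the feedback inhibitor Socs3. RNA sequencing covered 3 groups of 3 libraries, and each library held pooled cells of 3 to 5 mice of the C57BL/6J strain. HSCs, the steady-state hepatic stellate cells, came from normal livers of wild-type mice and were isolated on a density gradient. CCl4-fib were sorted as living CD45- GFP+ cells from Col1a2-GFP Tg mice that had received intraperitoneal carbon tetrachloride (CCl4) 2 times per week for 8 weeks. NASH-fib were sorted in the same way from MC4R-KO mice carrying the same transgene (MC-COL), males that were 8 weeks old when a 20-week feeding of Western diet began, and the ages of the other mice are not given in the sources used here. GFP in these mice is driven by the collagen α2(I) promoter, so the sort takes cells by their collagen expression, and no such gate was applied to HSCs. Isolation method and activation state therefore cannot be told apart in the comparisons with HSCs, nor can genotype, diet and CCl4 between NASH-fib and CCl4-fib.

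As background, cytokines of this family bind a ligand-specific chain and then gp130, which activates JAK kinases and the transcription factor STAT3. IL-6 and IL-11 use the chains encoded by Il6ra and Il11ra1 with a pair of gp130 molecules, LIF uses a dimer of LIFR with gp130, and oncostatin M in mice signals mainly through OSMR with gp130. SOCS3 is induced by STAT3, binds gp130 and shuts the signal off. In the liver, IL-6 signaling drives the acute-phase response of hepatocytes, and stellate cells and fibroblasts are known both as sources of IL-6 and as cells that respond to the family.

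Libraries held 3071070 to 5634273 reads on genes. The values are normalised read counts, that is, reads multiplied by a single factor per library, and 1 read was worth 0.794 to 1.46 units. Differences are log2 fold changes of (value + 1) from limma, fitted over all 9 libraries and 13651 genes. Calls required an adjusted p under 0.05 and a log2 fold change no smaller than 1 in either direction. In bulk libraries, fewer cells of a type and less mRNA per cell cannot be told apart. NASH-fib replicate 1 stood apart, with a correlation of at most 0.815 with the other libraries of its group. It shares a label prefix with HSC replicate 2, and the deviations of this pair from their group means went together (r = 0.645 across genes, which are not independent replicates). CCl4-fib replicate 1 has the same prefix, but its r was -0.0721 with HSC replicate 2 and -0.127 with NASH-fib replicate 1. Other pairs of libraries that share a prefix across groups had r from -0.171 to 0.0399. The 9 markers of quiescent stellate cells summed to 29369 to 32235 in HSCs and to at most 7166 in the sorted groups, and the 8 markers of activated fibroblasts to at most 12067 in HSCs and at least 29058 in the sorted groups. Of the 8, Postn went the other way, with means of 4523 in HSCs, 1878 in CCl4-fib and 1457 in NASH-fib. Markers of other cells also differed. In the order HSCs, CCl4-fib, NASH-fib, the sum of 12 hepatocyte markers was 28825 to 55518, 3160 to 5213 and 11234 to 36627, and that of 10 markers of sinusoidal endothelium was 8175 to 16647, 281 to 376 and 1326 to 4278. In the same order, cholangiocyte markers summed to 63.1 to 226, 3479 to 4753 and 5971 to 11605, smooth muscle markers to 69.9 to 132, 2564 to 12817 and 4671 to 18231, mesothelial markers to 555 to 775, 11287 to 17784 and 20545 to 25871, and lymphocyte markers to 21.1 to 56.8, 15.3 to 24.8 and 49.9 to 226. The 11 early genes of cell handling, such as Fos and Egr1, summed to 1455 to 1729, 13148 to 16542 and 10670 to 17439. The name of this list is only a label, and whether handling raised these genes was not tested. The cholangiocyte sum in NASH-fib was mostly Spp1 (means of 1629 in CCl4-fib and 6944 in NASH-fib). Sox9 (190 and 398), Epcam (3.57 and 41.6) and Cldn7 (2.49 and 3.13) were also higher in NASH-fib. Krt19 (1881 and 290) and Krt7 (303 and 285) were lower there. Of the mesothelial markers, Gpm6a (6797 and 15353) and Msln (3441 and 6551) were higher in NASH-fib. Upk3b (2712 and 638), Wt1 (1371 and 414) and Krt8 (168 and 141) were lower. Against CCl4-fib, limma called 1 of 5 tested cholangiocyte markers higher (Epcam) and 0 lower, and 0 of 5 mesothelial markers higher and 1 lower (Wt1). The part of these other cells and of handling in the results below was not tested.

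Of the 10 genes, 8 passed the filter on low reads, and Il11 and Osm did not. Against HSCs, Il6, Osmr and Socs3 rose and Lifr and Il6st fell in CCl4-fib. In NASH-fib, Il6 and Osmr rose and Lifr fell. Between NASH-fib and CCl4-fib, Il6ra was higher in NASH-fib and the other 7 genes were not called. In CCl4-fib, 3 of 8 were thus called higher and 2 lower, where 16.2% and 11.7% of all tested genes were. In NASH-fib, 2 were called higher and 1 lower, where 8.23% and 4.3% of all tested genes were. Between the sorted groups, 1 was called higher in NASH-fib and 0 lower by limma, edgeR and DESeq2 (1 lower at an unadjusted p under 0.05 in limma, namely Socs3), where 4.97% and 5.66% of all tested genes were (678 and 773 genes, and 802 and 563 with edgeR). The comparisons with HSCs share the HSC libraries and are not independent of each other. Libraries did not overlap for 4 genes higher and 2 lower in CCl4-fib than in HSCs, where 27.8% and 20.9% of tested genes did not, and for 5 higher and 2 lower in NASH-fib than in HSCs, where 12.7% and 11.6% did not. Between the sorted groups this held for 2 genes higher in NASH-fib and 1 lower, where it held for 17.1% and 22% of tested genes.

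**Figure D1:**
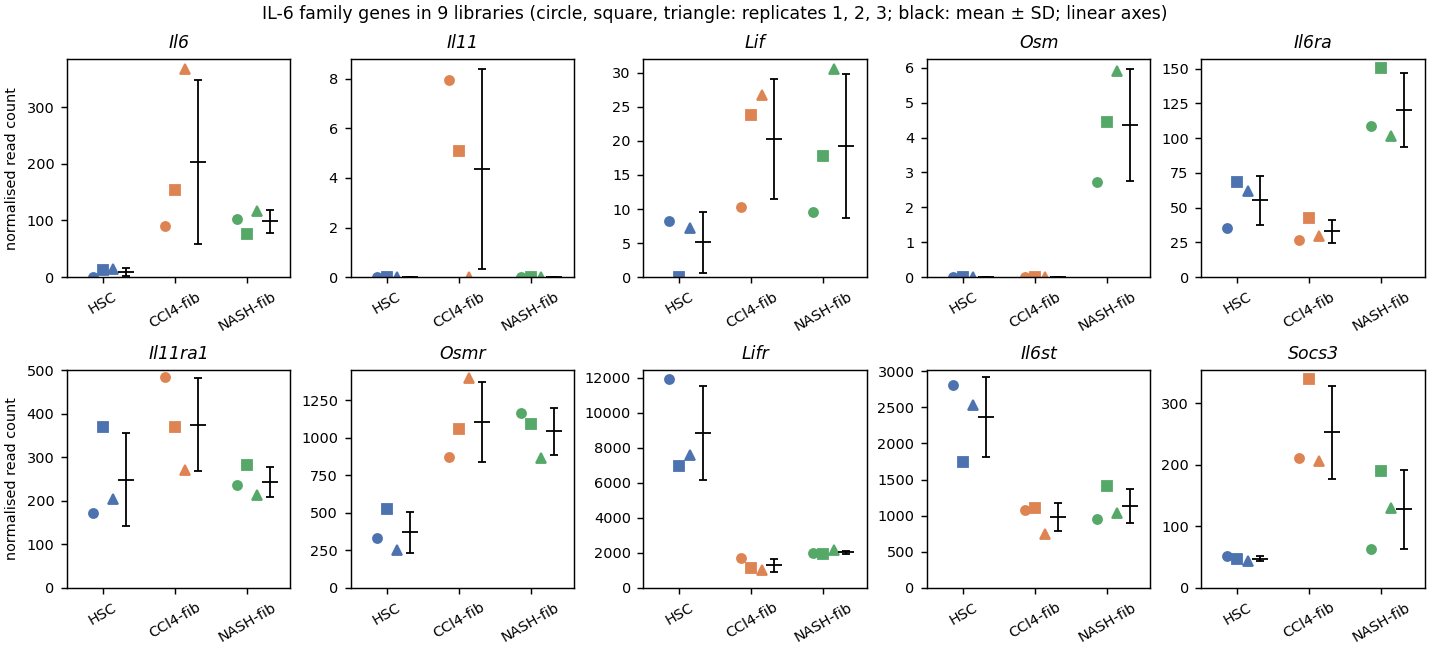
Normalised read counts (linear axes) of the 10 IL-6 family genes in 9 libraries, with circles, squares and triangles for replicates 1, 2 and 3 and black bars for the mean ± SD of each group (n = 3). Il6 and Osmr lay above HSCs and Lifr and Il6st below HSCs in every library of both sorted groups, while Il6ra was highest in NASH-fib.

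Among the ligands, Il6 (NM_031168, chr5:30013114-30019975, mm10) had the largest change from HSCs of the 8 tested members. HSC replicates 1, 2 and 3 had normalised read counts of 1.17, 13.1 and 14.4, those of CCl4-fib 89.7, 153 and 366, and those of NASH-fib 103, 75.7 and 116. Every sorted library thus exceeded every HSC library by a wide margin, whereas the NASH-fib values lay within or just below the range of CCl4-fib. The HSC values rest on 1, 9 and 12 reads, and without HSC replicate 1 the log2 fold changes below are 3.55 and 2.73, both still called. Against HSCs, Il6 rose 22.2-fold in CCl4-fib on the value + 1 scale (log2 fold change 4.47, SE 0.78, adjusted p = 0.00196, limma) and 12.6-fold in NASH-fib (3.65, SE 0.78, adjusted p = 0.0103). NASH-fib and CCl4-fib were not told apart for Il6 (log2 fold change -0.82, SE 0.78, adjusted p = 0.512, limma). The call in NASH-fib was lost when low genes were not filtered out (adjusted p = 0.0648) and when the prefix of the library label was a term of the fit (2.28, adjusted p = 0.193). Within the only label prefix that all 3 groups share, with 1 library each, Il6 was higher than in HSCs by 2.68 in CCl4-fib and 2.89 in NASH-fib on the log2 scale.

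Lif (NM_008501, chr11:4257568-4272514), which encodes leukemia inhibitory factor, was expressed at a low level. HSCs had values of 8.18, 0 and 7.17, CCl4-fib of 10.3, 23.8 and 26.7, and NASH-fib of 9.52, 17.8 and 30.5. All sorted libraries lay above the HSC libraries, but by little in the lowest of them, and at most 31 reads were counted in any library. The log2 fold changes of 2.23 in CCl4-fib and 2.13 in NASH-fib had standard errors of 0.90 and did not pass the threshold (adjusted p = 0.0899 and 0.186, limma). Without HSC replicate 2, the library without a read, they were 1.19 and 1.09.

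Osm (NM_001013365, chr11:4236785-4241026), which encodes oncostatin M, a cytokine known mainly from myeloid cells, was without reads in all HSC and CCl4-fib libraries, whereas 2, 5 and 6 reads were counted in the NASH-fib libraries. A count of 0 allows up to 3 reads, a value of 2.38 to 4.37, so the NASH-fib values of 2.72, 4.45 and 5.90 were close to what can be detected, and no fold is given. Without the filter on low reads, Osm was called higher in NASH-fib than in HSCs and in CCl4-fib (adjusted p = 0.00177 and 0.00721, limma over all 24453 genes). Libraries at 0 reads add no spread to this test, so these p-values leave out the counting error at the floor. No difference in Osm is drawn from them. Neutrophil markers had their highest sums in the same group. The 8 neutrophil markers summed to 617 to 6418 for NASH-fib, 5.55 to 45.8 for CCl4-fib and 52.6 to 1075 for HSCs, with Csf3r and Cxcr2 at 0 reads in all CCl4-fib libraries. The 11 macrophage markers summed to 2847 to 6390, 401 to 792 and 5071 to 16334, respectively, with the highest median in HSCs. Of these markers, Lyz2 (means of 3052, 389 and 2334 in the same order) and Ptprc (231, 19.7 and 221) were highest in NASH-fib. The others had their highest means in HSCs. The part of these cells in the Osm reads was not tested.

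Il11 (NM_008350, chr7:4772378-4778141), which encodes a fibrosis-related cytokine of stromal cells, was read only in CCl4-fib, with 10, 6 and 0 reads in replicates 1, 2 and 3. The difference was not called without the filter (adjusted p = 0.169 against HSCs and 0.240 between the sorted groups, limma), and no fold is given.

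The 250 bases upstream of the annotated start were read for 9 members from RefSeq (GRCm38.p6, the mm10 assembly), and Osm had no entry. The AP-1 element, the site of FOS and JUN proteins, was searched as TGANTCA and the STAT element as TTCNNNGAA, both of which read the same on either strand. AP-1 matches were found upstream of all 3 ligands with an entry and of 0 of the 5 receptor genes, where 6.75% of 32841 promoters held a match. The only STAT match was upstream of Socs3, where 7.02% of promoters held one. The windows below are those of Il6 and Lif, the most abundant ligands, and of the inhibitor Socs3, written 5′ to 3′ with the matches in capitals. That of Il6 is chr5:30012864-30013113 (+ strand), that of Lif chr11:4257318-4257567 (+ strand) and that of Socs3 chr11:117969367-117969616 (- strand).
Il6: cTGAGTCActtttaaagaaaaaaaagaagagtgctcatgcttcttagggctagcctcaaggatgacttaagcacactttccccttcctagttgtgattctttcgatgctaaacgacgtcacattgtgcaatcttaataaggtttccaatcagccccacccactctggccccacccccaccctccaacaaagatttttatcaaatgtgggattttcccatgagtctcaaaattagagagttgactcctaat
Lif: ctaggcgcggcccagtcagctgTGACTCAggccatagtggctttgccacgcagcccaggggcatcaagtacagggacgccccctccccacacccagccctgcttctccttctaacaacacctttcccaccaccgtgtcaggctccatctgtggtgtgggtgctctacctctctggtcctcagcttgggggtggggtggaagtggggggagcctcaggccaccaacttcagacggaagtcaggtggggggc
Socs3: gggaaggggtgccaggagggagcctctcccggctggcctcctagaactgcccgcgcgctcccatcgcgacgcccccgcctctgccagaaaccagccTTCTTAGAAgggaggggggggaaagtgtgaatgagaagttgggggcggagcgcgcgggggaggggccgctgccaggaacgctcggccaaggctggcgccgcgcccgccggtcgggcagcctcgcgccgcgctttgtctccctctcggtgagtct
The AP-1 matches start at positions -249 for Il6 and -228 for Lif, counted from the annotated start, and the STAT match of Socs3 starts at -154. Il11 had an AP-1 match at -98, in the window of the start that the expression table uses. A match describes letters in these windows only.

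The receptor genes differed in direction. Lifr (NM_013584, chr15:7140542-7197489), the LIF receptor chain, had its highest values in HSCs (11918, 6971 and 7599), its lowest in CCl4-fib (1685, 1105 and 1040) and values of 2005, 1947 and 2140 in NASH-fib. HSC libraries were separated from all sorted libraries, and NASH-fib libraries, which differed little among themselves, lay above CCl4-fib libraries. Lifr fell 6.88-fold in CCl4-fib (log2 fold change -2.78, SE 0.33, adjusted p = 0.000221, limma) and 4.23-fold in NASH-fib (-2.08, SE 0.33, adjusted p = 0.00203). Both calls held with each library left out, and the difference between the sorted groups (0.70, adjusted p = 0.193, limma) was not called. With the label prefix as a term, the fall in NASH-fib was -1.77 (adjusted p = 0.0794, limma). With the hepatocyte or the macrophage and neutrophil marker level as a term, no member, Lifr included, was called in CCl4-fib against HSCs. In these fits, 0 and 103 of all tested genes were called in that comparison, and the call of Lifr in NASH-fib held. The highest library reached 1.06 reads per base, and since at most 3 reads per position were counted, the HSC level may be understated. Hepatocytes also express Lifr. The summed markers of hepatocytes and of sinusoidal endothelium, like Lifr, were lowest in CCl4-fib, and their part in its values was not tested. Exonic reads do not separate the membrane form from the soluble form of the mouse receptor.

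Il6st (NM_010560, chr13:112464070-112506860) followed the same order at a smaller size. HSCs had values of 2813, 1749 and 2531, against 1077, 1101 and 751 for CCl4-fib and 956, 1407 and 1037 for NASH-fib. The lowest HSC library lay above the highest sorted library, and the sorted groups overlapped. It fell 2.41-fold in CCl4-fib (log2 fold change -1.27, SE 0.33, adjusted p = 0.0171, limma), a call lost without HSC replicate 1 (adjusted p = 0.0653) or CCl4-fib replicate 3 (adjusted p = 0.0722). The log2 fold change of NASH-fib was -1.05 (SE 0.33, adjusted p = 0.0675, limma), and it was called without HSC replicate 2 (-1.26, adjusted p = 0.0454).

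Osmr (NM_011019, chr15:6813577-6874313), the oncostatin M receptor chain, moved the other way. The values of HSCs were 330, 523 and 255, those of CCl4-fib 869, 1058 and 1397, and those of NASH-fib 1169, 1094 and 867. Sorted libraries overlapped one another and all exceeded the HSC libraries. Osmr rose 3.08-fold in CCl4-fib (log2 fold change 1.62, SE 0.36, adjusted p = 0.00725, limma) and 2.93-fold in NASH-fib (1.55, SE 0.36, adjusted p = 0.0158). The call in NASH-fib was lost without HSC replicate 1 (adjusted p = 0.0599), HSC replicate 3 (0.0572) or NASH-fib replicate 2 (0.0547), where it stayed at 1.32 or more on the log2 scale. With the label prefix as a term, neither rise was called (adjusted p = 0.0568 in CCl4-fib and 0.320 in NASH-fib, limma). Within the prefix shared by all groups, Osmr was higher by 0.73 in CCl4-fib and 1.16 in NASH-fib on the log2 scale, and Lifr was lower by -2.05 and -1.80.

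**Figure D2:**
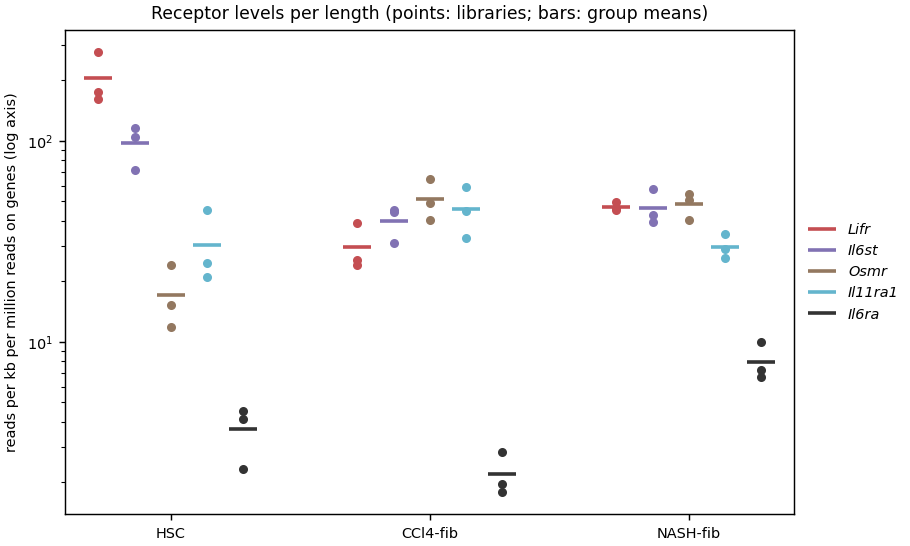
RPKM, reads scaled to exon length and to all reads on genes (log axis), for the 5 receptor genes, with a point for each library and a bar for each group mean (n = 3). Lifr stood above Osmr in every HSC library, and both lay between 24.1 and 64.9 in the sorted groups.

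Levels of different genes were compared per length, as RPKM, the reads scaled to exon length and to all reads on genes. In HSCs, Lifr had 205 ± 62.5 (SD, n = 3) and Osmr 17.1 ± 6.42 (SD, n = 3). In NASH-fib, Lifr had 47.1 ± 2.29 (SD, n = 3) and Osmr 48.4 ± 7.31 (SD, n = 3), and in CCl4-fib, Lifr had 29.6 ± 8.24 (SD, n = 3) and Osmr 51.5 ± 12.4 (SD, n = 3). The ratio of Osmr to Lifr within a library does not depend on the scaling between libraries. Lifr exceeded Osmr per length 18.0-fold, 6.64-fold and 14.8-fold in HSC replicates 1, 2 and 3. In CCl4-fib the ratio of Osmr to Lifr was 1.03, 1.92 and 2.69, and in NASH-fib it was 1.17, 1.13 and 0.812. HSC libraries were thus far from the sorted libraries, in which the chains were near parity or Osmr was the higher. The log2 ratio averaged -3.60 ± 0.76 for HSCs, 0.80 ± 0.70 for CCl4-fib and 0.031 ± 0.29 for NASH-fib (SD, n = 3 each). The groups differed in an exact permutation test of the variation between 3 groups (p = 0.0107, adjusted p = 0.0107 over 3 ratios, smallest possible p = 0.00357). In pairs, the ratio was 21.1-fold higher in CCl4-fib and 12.4-fold higher in NASH-fib than in HSCs, each with an exact permutation p of 0.1, the smallest that 3 against 3 libraries allow. NASH-fib and CCl4-fib differed 1.71-fold, with an exact permutation p of 0.3. With labels permuted only within replicate numbers, the exact permutation p of this ratio and of both ratios below was 0.0556.

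**Figure D3:**
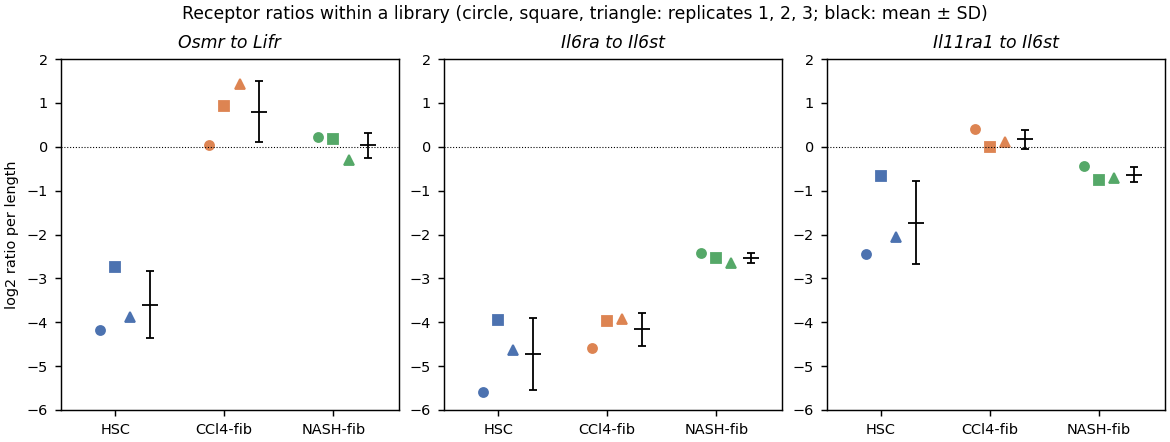
Log2 ratios per length of Osmr to Lifr, Il6ra to Il6st and Il11ra1 to Il6st in each library, with the mean ± SD of each group (n = 3) in black and equal levels at the dotted line. HSC libraries sat at -4.17 to -2.73 for Osmr to Lifr and the sorted libraries at -0.30 to 1.43, whereas NASH-fib stood apart from both other groups for Il6ra to Il6st.

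Il6ra (NM_010559, chr3:89869324-89913196), the chain that makes a cell respond to IL-6 itself, was the receptor with the lowest level per length. NASH-fib had values of 109, 151 and 101, HSCs of 35.1, 68.4 and 62.2, and CCl4-fib of 27.0, 42.5 and 29.6. All NASH-fib libraries lay above all others, and HSCs and CCl4-fib overlapped. Il6ra was 3.57-fold higher in NASH-fib than in CCl4-fib (log2 fold change 1.84, SE 0.44, adjusted p = 0.0282, limma). Within each label prefix that these groups share, with 1 or 2 libraries each, it was higher by 1.97 and 2.03. This was the only member called between the sorted groups, and 6 of the 9 fits without a library, those without any of the CCl4-fib or NASH-fib libraries, lost the call with adjusted p-values from 0.0564 to 0.0952 and log2 fold changes from 1.67 to 2.03. Against HSCs, the log2 fold change was 1.14 for NASH-fib (SE 0.44, adjusted p = 0.138, limma) and -0.70 for CCl4-fib (SE 0.44, adjusted p = 0.260). Within the library, the level of Il6st per length was 15.5 to 48.1 times that of Il6ra in HSCs, 15.3 to 24.0 times in CCl4-fib and 5.38 to 6.29 times in NASH-fib (exact permutation test over 3 groups, p = 0.0107, adjusted p = 0.0107). Hepatocytes and myeloid cells express Il6ra. Against HSCs, 0 of 12 hepatocyte and 0 of 7 tested neutrophil markers were called in NASH-fib, and 4 of 11 macrophage markers were lower. Of all tested genes, 8.23% were called higher and 4.3% lower there. The median log2 fold changes were -0.48 for hepatocyte, 3.65 for neutrophil and -2.54 for macrophage markers. Neutrophil markers were thus higher on the median, though none was called. Between the sorted groups, 7 of 12 hepatocyte, 5 of 11 macrophage and 5 of 7 tested neutrophil markers were called higher in NASH-fib. So were 9 of 10 markers of sinusoidal endothelium, where 4.97% of all tested genes were. With the level of macrophage and neutrophil markers as a term of the fit, the log2 fold change of Il6ra between the sorted groups was 0.89 (adjusted p = 0.692, limma). In this fit, 0 of all 13651 genes were called in this comparison and 1622 had an unadjusted p under 0.05. The sums of neutrophil markers had their highest median in NASH-fib, overlapping HSCs, and their lowest in CCl4-fib, and the sums of hepatocyte and of macrophage markers were lowest in CCl4-fib. The part of these cells in the Il6ra values was not tested.

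Il11ra1 (NM_001172054, chr4:41760443-41769473), the IL-11 receptor chain, had values of 172, 370 and 203 for HSCs, 484, 369 and 271 for CCl4-fib and 237, 281 and 213 for NASH-fib. The groups overlapped, and no comparison was called (log2 fold changes of 0.63, 0.045 and -0.59 for CCl4-fib against HSCs, NASH-fib against HSCs and NASH-fib against CCl4-fib, with adjusted p-values of 0.249, 0.979 and 0.346, limma). The ratio of Il11ra1 to Il6st per length was 0.182 to 0.629 in HSCs, 0.996 to 1.34 in CCl4-fib and 0.595 to 0.738 in NASH-fib (exact permutation test over 3 groups, p = 0.0107, adjusted p = 0.0107, and 0.05 without CCl4-fib replicate 1). These values are uncertain, because the near-identical copies listed as Il11ra2 and Gm13305 share sequence with Il11ra1, the entry overlaps Ccl27a, and reads of either strand were counted.

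Socs3 (NM_007707, chr11:117966087-117969366), the feedback inhibitor of gp130, was even across HSCs (51.4, 46.6 and 44.2), with values of 211, 340 and 207 for CCl4-fib and 62.5, 191 and 130 for NASH-fib. The 3 groups did not overlap, with CCl4-fib highest and HSCs lowest, and NASH-fib replicate 1 lay close to HSCs. Socs3 rose 5.11-fold in CCl4-fib (log2 fold change 2.35, SE 0.46, adjusted p = 0.00367, limma). For NASH-fib the log2 fold change was 1.27 (SE 0.46, adjusted p = 0.111, limma), and it was called without NASH-fib replicate 1 (1.71, adjusted p = 0.0176) and with DESeq2 (1.46, adjusted p = 0.0136). The difference between NASH-fib and CCl4-fib was -1.08 (SE 0.46, adjusted p = 0.151, limma). Early genes of cell handling rose with Socs3 and Il6 in the sorted groups, Fos by 5.60 and Egr1 by 3.57 on the log2 scale in CCl4-fib, and by 4.85 and 3.49 in NASH-fib. Of the 11 early genes, limma called 10 higher in each sorted group, where it called 16.2% of all tested genes in CCl4-fib and 8.23% in NASH-fib. Between the sorted groups, limma called 4.97% and 5.66% of all tested genes higher and lower in NASH-fib. There 0 early genes were higher and 1 lower by limma, edgeR and DESeq2 (0 and 2 at an unadjusted p under 0.05 in limma). Their part in the Il6 and Socs3 values was not tested.

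**Figure D4:**
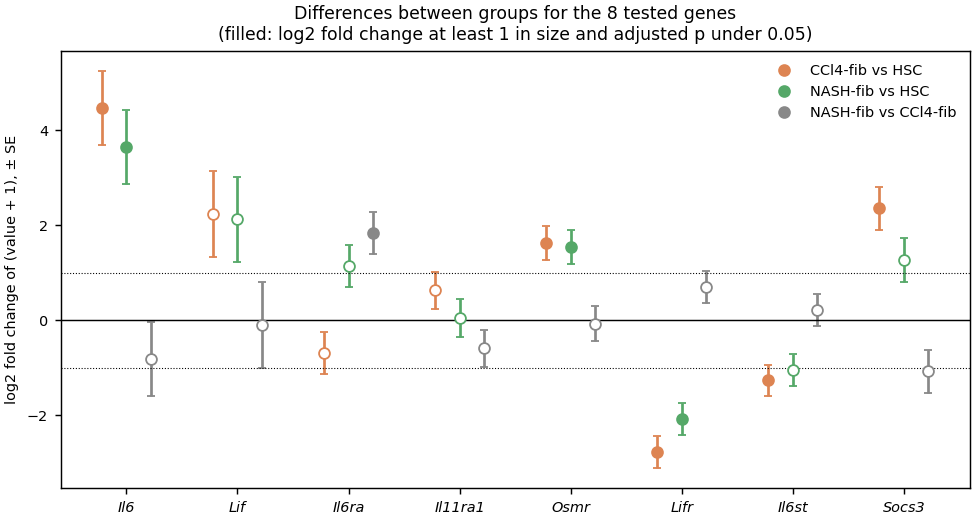
Log2 fold change of (value + 1) with its standard error for the 8 tested genes in each comparison (n = 3 libraries per group), filled where called and with dotted lines at 1 and -1. Against HSCs, Il6 and Osmr were called higher and Lifr lower in both sorted groups, and Il6ra was called between NASH-fib and CCl4-fib.

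The order of the members by level per length also differed. In HSCs, Lifr came first and Il6st (97.3 ± 22.7, SD, n = 3) second, and neither overlapped the next gene. Il11ra1 (30.3 ± 13.0, SD, n = 3) overlapped Osmr, and Socs3, Il6ra and Il6 followed between 3.90 and 1.88, each overlapping the next. In CCl4-fib, Osmr, Il11ra1, Il6st, Il6, Lifr and Socs3 formed a series from 51.5 to 20.8 in which each gene overlapped the next, followed by Il6ra at 2.19 ± 0.553 (SD, n = 3). In NASH-fib, Osmr, Lifr and Il6st lay between 48.4 and 46.6 and overlapped, Il11ra1 (29.8 ± 4.23, SD, n = 3) came next, apart from both neighbours, and Il6 (19.4 ± 4.06, SD, n = 3), Socs3 and Il6ra followed, each overlapping the next. Lif, Osm and Il11 were last in every group, at 1.13 or less.

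Of 12 other ligands and receptors of the family, 6 were tested and 0 were called in any comparison by limma or edgeR. Of all tested genes, limma called 12.5% in NASH-fib and 27.8% in CCl4-fib against HSCs, and 10.6% between the sorted groups. Of the 6, at an unadjusted p under 0.05 in limma, there were 1 higher and 1 lower in NASH-fib and 2 higher in CCl4-fib against HSCs, and 1 lower between the sorted groups, while DESeq2 called Clcf1 higher in CCl4-fib and Cntfr lower in NASH-fib. Clcf1, a ligand of the ciliary neurotrophic factor receptor, was closest to a call in CCl4-fib against HSCs (log2 fold change 1.94, adjusted p = 0.0622, limma), and Cntfr, the chain that binds ciliary neurotrophic factor, in NASH-fib against HSCs (-2.55, adjusted p = 0.0573, limma, 0 to 5 reads in NASH-fib). Ctf1, which encodes cardiotrophin, had a log2 fold change of 2.09 in NASH-fib against HSCs (adjusted p = 0.161, limma), and Il27ra, the IL-27 receptor chain, one of 0.98 in CCl4-fib against HSCs (adjusted p = 0.197, limma). For Cntf, which encodes ciliary neurotrophic factor, it was 0.60 in both (adjusted p = 0.843 and 0.695, limma), and for the copy Il11ra2, 1.16 in CCl4-fib (adjusted p = 0.0665, limma). Il31 had 0 reads in all 9 libraries.

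Of the 24 tested genes of JAK-STAT signaling, 4 were higher and 4 lower in CCl4-fib than in HSCs, shares near the 16.2% and 11.7% of all tested genes (median log2 fold change -0.18, where the median of all tested genes was 0.18). In NASH-fib against HSCs, 0 were called by limma (1 higher and 4 lower at an unadjusted p under 0.05), where 12.5% of all tested genes were, and edgeR and DESeq2 called Cish higher. In CCl4-fib against HSCs, Cish, a STAT5 target and inhibitor of cytokine receptors, rose 17.8-fold (log2 fold change 4.16, adjusted p = 0.000988, limma), Pias3, an inhibitor of STAT3, by 1.78 on the log2 scale, Adam17, the protease that sheds the IL-6 receptor, by 1.51 (not called by edgeR), and Ptpn2, a phosphatase of JAK kinases, by 1.47. In the same comparison, Ptpn6, a phosphatase best known from hematopoietic cells, had a log2 fold change of -3.10, Jak1, the main kinase of gp130, one of -1.95 (adjusted p = 0.00321, limma), Gab1, an adaptor, one of -1.43 and Jak2 one of -1.12. Cish and Ptpn2 were lower in NASH-fib than in CCl4-fib, where 5.66% of all tested genes were, with log2 fold changes of -2.49 and -1.33 (adjusted p = 0.0353 and 0.0417, limma). There edgeR called only Cish, and DESeq2 also called Pias3 lower and Jak1 higher. Stat3 itself was not called in CCl4-fib (log2 fold change 1.52, SE 0.72, adjusted p = 0.138, limma) or in NASH-fib (0.58, adjusted p = 0.749, limma).

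Genes known to respond to STAT3 were higher in CCl4-fib than in HSCs for 11 of 24 tested genes and lower for 2, where 16.2% and 11.7% of all tested genes were (median log2 fold change 1.28). The largest rises were those of Saa3, an acute-phase protein of stromal cells (6.85, adjusted p = 0.000265, limma), Lcn2, an iron-siderophore-binding protein (6.55), Timp1, an inhibitor of metalloproteinases (6.07), Serpina3n, a protease inhibitor (4.59), and Ier3 (4.44), and Lrg1 and Mcl1 were lower. In NASH-fib, 5 of 24 were higher than in HSCs and 1 lower, where 8.23% and 4.3% of all tested genes were (median 0.39, where the median of all tested genes was -0.022). These were Timp1 at 5.69 (adjusted p = 0.00111, limma), Serpina3n at 3.63, Junb at 2.33, Nfil3 at 2.12, Fosl2 at 1.63 and Steap4, a metalloreductase, at -1.95. With edgeR, 6 were higher in NASH-fib, Lcn2 among them, and with DESeq2 7, Lcn2 and Saa3 among them. In limma, Lcn2 had a log2 fold change of 4.75 there (adjusted p = 0.0552), and of -1.80 between NASH-fib and CCl4-fib (adjusted p = 0.432). In CCl4-fib against HSCs, edgeR called 9 higher and DESeq2 11. Between NASH-fib and CCl4-fib, 0 were higher by limma, edgeR and DESeq2 (also 0 at an unadjusted p under 0.05 in limma) and 4 lower by limma, where it called 4.97% and 5.66% of all tested genes. The 4 were Saa3 (-5.17, adjusted p = 0.0100, limma), Ier3 (-3.37), Zfp36 (-2.06) and Steap4 (-1.73). Several of these genes, such as Junb, Ier3 and Zfp36, are also early response genes, and Timp1 is also a marker of activated fibroblasts. The list was written by hand with earlier results of these data known, so its counts describe the list only.

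**Figure D5:**
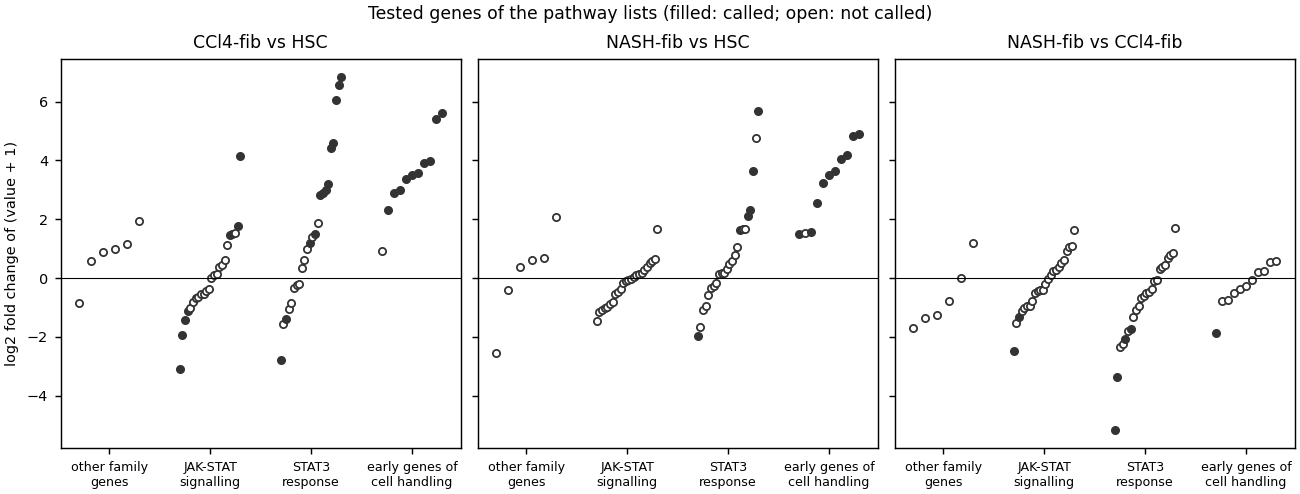
Log2 fold change of (value + 1) of each tested gene in 4 lists (other family genes, JAK-STAT signaling, STAT3 response, early genes of cell handling) in the 3 comparisons, filled where called. Called genes of the STAT3 response list number 11 higher and 2 lower of 24 in CCl4-fib against HSCs (16.2% and 11.7% of all tested genes) and 0 higher and 4 lower in NASH-fib against CCl4-fib (4.97% and 5.66% of all tested genes).

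The genes closest in pattern were found by the root mean square difference of centred log2(value + 1) over the 9 libraries. Vim, which encodes the mesenchymal filament vimentin, and Palld, an actin-associated protein, were closest to Osmr (0.14 and 0.24). For Lifr they were Rtp4 and Olfm1 (0.27 and 0.28), for Il6st, Stat2 and Rad54l2 (0.14 and 0.19), for Il6, Lrrc1 and Vcan, the proteoglycan versican (0.59 and 0.65), and for Socs3, Lrba and Fchsd1 (0.22 and 0.29). For Lif they were Ddx23 and Gal3st4 (0.48 and 0.49), for Il6ra, AW011738 and Gm20939 (0.40 and 0.41), and for Il11ra1, Ube2b (0.15). Il6 thus had no gene as close as those of Osmr and Il6st. The 9 libraries share 3 groups, and nothing further is drawn from these likenesses.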

How the data were processed

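RNA from 9 libraries (HSCs, CCl4-fib and NASH-fib) was amplified with the SMARTer Ultra Low Input method and read single-end. Per the file headers and methods, the authors aligned reads to mm10 with STAR, and HOMER counted those of either strand on RefSeq exons (at most 3 per position, transcripts of a gene merged). The deposited values are a signal per gene: reads scaled by a factor per library to equal sums. The header names 10 libraries, and the tenth is not analysed here. Scaling back gave whole numbers of reads for 100% of values (tolerance 0.05). On these recovered reads, edgeR called 1576 (NASH-fib against HSCs), 3592 (CCl4-fib against HSCs) and 1365 genes (NASH-fib against CCl4-fib). No molecular identifiers were used, so limits of 3 reads cover counting error only.

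Since the signal is no count, limma (version 3.58.1, variance trend) was the main test, on log2(value + 1) of 13651 genes passing edgeR's filterByExpr (version 4.0.16, minimum count 10) on the reads, with Benjamini-Hochberg adjustment over these genes. This scale understates changes of low genes. P-values measure the spread between pools. An average RPKM over 100, named in the methods, was an alternative. Scripts were tested on simulated data. The members and the hand-written gene lists were chosen with earlier results of these data known. The genes named are the members, tested family genes, at most 5 called genes per list and direction, the 2 nearest patterns per member (1 gene is not reported here) and markers. Stat3, Il31 and Gm13305 were named after their values were seen. Alternatives were DESeq2 (version 1.42.0), edgeR, other scalings, pseudocounts and filters, fits on the groups compared, terms for replicate number, label prefix or marker levels, and each library left out.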

Additional observations from a re-analysis of the deposited data

How the results depend on the processing

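Of 502 values of members under alternatives, 446 kept their direction and side of the threshold, 32 lost a call, 3 gained one and 21 changed sign, none of which had been called. The cause was not tested. No member passed an average RPKM over 100, so that only the pathway genes called could be counted there, 6 in NASH-fib against HSCs, 8 in CCl4-fib against HSCs and 4 between the sorted groups, in place of 16, 31 and 7. With the label prefix as a term, 0 members were higher and 0 lower in NASH-fib against HSCs. In CCl4-fib against HSCs, 1 was lower, and Il6 and Socs3 were still called higher. Between the sorted groups, 0 were higher in NASH-fib, and 8 and 3 pathway genes were called in NASH-fib against HSCs and CCl4-fib. With the hepatocyte marker level as a term, 1 member was higher in NASH-fib than in HSCs with 10 pathway genes, and 0 members and 0 pathway genes were called in the other comparisons, in which 0 of all genes were. With macrophage and neutrophil markers as a term, 0 members were called in CCl4-fib, with 5 pathway genes, and 0 of either between the sorted groups. Fitted on the groups compared alone, 1 member was higher in NASH-fib than in HSCs. Without a filter, 2 members (Il6ra and Osm, the latter on 0 to 6 reads per library) and 1 pathway gene were called between the sorted groups. Same-numbered libraries did not deviate together throughout (correlations from -0.473 to 0.514), so they share only a number. With the replicate block, 3 pathway genes were called there, no member's call changed, and the exact permutation test over 3 groups, with labels permuted within replicate numbers, gave p = 0.0556 for each ratio. The ratio differences themselves between NASH-fib and HSCs stayed at 3.63 (Osmr to Lifr), 2.19 (Il6ra to Il6st) and 1.10 (Il11ra1 to Il6st) on the log2 scale.

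With each library left out in turn, members called higher ran from 1 to 3 in NASH-fib and 3 to 3 in CCl4-fib against HSCs and 0 to 1 between the sorted groups, and those lower from 1 to 2, 1 to 2 and 0 to 0. Pathway genes ran from 12 to 20, 21 to 35 and 2 to 9. The ratio differences ran from 3.34 to 4.06, 1.76 to 2.57 and 0.73 to 1.63. Signs changed for values near 0. Between NASH-fib and CCl4-fib, Lif was 0.11 with edgeR, 0.083 with DESeq2, 0.065 with TMM scaling, 0.069 with the prefix and 0.10 with the myeloid term, and from -0.51 to 0.30 with a library left out. Osmr was 0.11, 0.090 and 0.11 with edgeR, DESeq2 and TMM, 0.033 with upper-quartile scaling, 0.45 with the hepatocyte term and from -0.23 to 0.11 with a library left out. Il11ra1 in NASH-fib against HSCs was -0.14 with the prefix, -0.057 with the hepatocyte term and from -0.18 to 0.37 with a library left out. Il6ra in CCl4-fib against HSCs was 0.30 with the myeloid term. TMM scaling moved the median of all genes between the sorted groups from -0.11 to 0.069. Over all genes, 1711 were called in NASH-fib and 3801 in CCl4-fib against HSCs and 1451 between the sorted groups. The counts moved by over 1.5 times with DESeq2 (2679 between the sorted groups), without a filter (455 there), with the block (929 there), with the prefix (668, 2476 and 593), with the hepatocyte term (0 and 0 in the comparisons with CCl4-fib, and 1228 and 605 at an unadjusted p under 0.05), with the myeloid term (103 and 0), above the RPKM limit (131, 315 and 159 of 1080 genes), and between the sorted groups without CCl4-fib replicate 1, 2 or 3 (532, 212 and 695) or NASH-fib replicate 1 or 3 (684 and 269), and in CCl4-fib against HSCs without CCl4-fib replicate 2 (2446).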
